A study of Mus musculus with 12 samples.

Results

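The RNA level of 9 genes that mark striatal projection neurons was followed in hippocampal tissue: Drd1, Drd2, Adora2a, Ppp1r1b, Rgs9, Pde10a, Penk, Tac1 and Six3. The members were given as a list of symbols and not picked by a value, but earlier results of these data were known when they were chosen. All 9 were found among the 24209 genes of the deposited tables after the RefSeq transcript rows were summed per symbol. The study injected AAV5 vectors into the hippocampus of male C57BL/6 mice at 10 weeks of age and sequenced mRNA from both hippocampi 10 weeks later, 1 library per mouse. A vector carried GFP alone (GFP Ctrl), or GFP with a miRNA sponge, a transcript with repeated sites that binds a miRNA and keeps it from its targets. Of the 12 mice, 6 belonged to the miR-9 experiment (3 GFP-miR-9sp, 3 GFP Ctrl) and 6 to the miR-34 experiment (3 GFP-miR-34sp and GFP Ctrl mice of its own, again 3), so there were 4 groups. Every vector used the synapsin promoter, which drives expression in neurons, whereas the sequenced RNA came from all cells of the dissected tissue. The labels call the samples hippocampal neurons, but glial markers were read in every library, with the 4 astrocyte markers summing to between 1737 and 1988 reads per 1000000 counted reads (CPM).

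Projection neurons make up most of the striatum and fall into a direct pathway class, with the dopamine receptor Drd1 and substance P (Tac1), and an indirect pathway class, with the dopamine receptor Drd2, the adenosine receptor Adora2a and enkephalin (Penk). Both classes use DARPP-32 (Ppp1r1b), the G protein regulator Rgs9 and the phosphodiesterase Pde10a in dopamine and cAMP signalling. None of these genes is confined to the striatum: enkephalin, substance P and DARPP-32 are also known from hippocampal cells, and the hippocampus borders the lateral ventricle and septum. In tissue RNA, fewer cells of a type and less RNA per cell cannot be told apart.

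The question put by the sponge design is whether a gene responds when a miRNA is held back, so seed matches in the members were listed first. The mature sequences from RefSeq are shown here with the seed, bases 2 to 8, in capitals, because the matches below are its complement.
mmu-miR-9-5p: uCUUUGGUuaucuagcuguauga
mmu-miR-34a-5p: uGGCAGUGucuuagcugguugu
mmu-miR-34b-5p: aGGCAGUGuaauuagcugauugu
The miR-34 entries share the seed GGCAGUG, and the seed of miR-9 is CUUUGGU. When the longest annotated 3′ UTR per gene was searched (GENCODE M1, mm9), the complement of the miR-9 seed, ACCAAAG, was present in Drd2 alone of the 9 members, and the complement of the miR-34 seed, CACTGCC, in Penk and Six3. Among 19915 genes with a 3′ UTR, 11.4% had the miR-9 match and 14% the miR-34 match. The 3 sites are shown with the match in capitals, because they are the members' only ones.
Drd2, miR-9 site, chr9:49215470-49215492, plus strand: tcctgtctccttggcACCAAAGA
Penk, miR-34 site, chr4:4060847-4060869, minus strand: tggtctagataactaCACTGCCt
Six3, miR-34 site, chr17:86028185-86028207, plus strand: gtgccccttgcctccCACTGCCg
The site in Drd2 was an 8mer, a match followed by A, and those in Penk and Six3 were matches without that A. A sequence match describes the letters only and does not show that the miRNA acts there.

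Between 17279620 and 24428477 reads per mouse were counted in the miR-9 experiment and between 11029604 and 16934133 in the miR-34 experiment. Values are given as CPM where 1 gene is compared between mice, and as CPM per kilobase of the deposited transcript length (RPKM) where genes are compared with each other. A pair of GFP Ctrl mice stood apart in Six3 and Adora2a, mouse 8 of the miR-34 experiment and mouse 16 of the miR-9 experiment. The fold changes of Six3 and Adora2a are given with and without the mouse that stood apart. Correlations with the mean of the members were not computed without these mice. The miR-9 experiment also has a GFP Ctrl mouse numbered 8, and in the following mouse 8 is that of the miR-34 experiment. The labels put the numbers after the group name and do not say that mice are littermates or share a batch.

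Ppp1r1b and Penk were the most abundant members, with a mean over the 12 mice of 31.95 RPKM (SD 5.164) and 31.75 RPKM (SD 6.026), and did not differ beyond their spread, since Ppp1r1b was the higher of the pair in 5 of 12 mice. Tac1 followed at 11.95 RPKM (SD 2.393), Rgs9 at 3.255 RPKM (SD 0.5351), Drd2 at 1.854 RPKM (SD 0.3232) and Adora2a at 1.121 RPKM (SD 0.7373). Each was above the next in all 12 mice, except that Drd2 was above Adora2a in 11 of 12. Six3 at 0.5054 RPKM (SD 0.6816) and Pde10a at 0.4209 RPKM (SD 0.07842) did not keep an order, Six3 being the higher in 3 of 12 mice. Ppp1r1b and Penk were above 86.5% and 86.4% of the 19673 genes with a read. The place of Rgs9 above Drd2 in all 12 mice rests on dividing the reads of each RefSeq entry by that entry's own length. Divided by the longest RefSeq entry of the gene, Rgs9 had a mean of 2.047 RPKM and was not above Drd2 in every mouse.

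Drd1 (chr13:54146555-54151027, minus strand, positions of genes on mm9), the dopamine receptor of the direct pathway, was all but unread. Between 0 and 2 reads per mouse were counted over its 2 RefSeq entries, under the floor of 3 reads (0.1228 to 0.272 CPM) in all 12 mice, which is why no fold change is given. The table itself limits this value: of genes with 1 coding entry 64.6% had a mean read number above 10, against 38.6% of genes with 2 entries and 32% of genes with 3 or more, and how reads shared by entries were counted is not stated in the sources used here. The near absence of Drd1 reads therefore cannot be read as absence of the receptor's RNA. Pde10a also has a pair of entries of like length (7763 and 7717 bases), and Rgs9 has entries of 7629 and 2486 bases. The 23 to 82 reads per mouse of Pde10a and the 137 to 398 of Rgs9 may carry the same limit, which was not tested.

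Drd2 (chr9:49148732-49216282, plus strand), the receptor of the indirect pathway, was low and even. The GFP Ctrl mice of the miR-9 experiment had 3.23, 3.42 and 3.82 CPM and the GFP-miR-9sp mice 2.61, 3.07 and 3.16 CPM. The sponge mice were all below the controls, and the edgeR log2 fold change was -0.22 (SE 0.15, adjusted p = 0.97). In the miR-34 experiment the GFP Ctrl mice had 2.18, 2.55 and 2.71 CPM and the GFP-miR-34sp mice 2.17, 2.54 and 3.00 CPM, groups that overlapped throughout (log2 fold change 0.04, SE 0.21). In CPM, the member with the miR-9 site was thus not higher in any GFP-miR-9sp mouse than in a GFP Ctrl mouse. The nearest values were 3.16 and 3.23 CPM, and 7.86% of all genes were lower in every GFP-miR-9sp mouse. CPM is scaled to total counted reads. So scaled, the median log2 fold change over all genes was -0.022 after miR-9sp, against -0.001 with edgeR's TMM scaling. Whether the Drd2 groups stay apart with TMM scaling was not tested. Penk and Six3, the members with a miR-34 site, had log2 fold changes of -0.37 and -2.53 after miR-34sp (edgeR adjusted p = 0.709 and 0.552). The part of the sites in these values was not tested.

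Adora2a (chr10:74779688-74797533, plus strand), the adenosine receptor that opposes Drd2 in the same neurons, varied far more between mice than Drd2. The GFP Ctrl mice of the miR-34 experiment had 2.27, 2.27 and 8.49 CPM, the last being mouse 8, and the GFP-miR-34sp mice 1.80, 2.02 and 2.13 CPM. The groups did not overlap, but the controls other than mouse 8 lay just above the sponge mice. The log2 fold change was -1.11 (SE 0.46, edgeR adjusted p = 0.724) with mouse 8 and -0.19 (adjusted p = 0.959) without it. In the miR-9 experiment the GFP Ctrl mice had 1.84, 2.70 and 4.54 CPM, the last being mouse 16, and the GFP-miR-9sp mice 1.56, 2.40 and 3.01 CPM. Here the groups overlapped, and the log2 fold change of -0.38 (SE 0.32) turned to 0.06 without mouse 16.

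Ppp1r1b (chr11:98209718-98219110, plus strand) encodes DARPP-32, the phosphatase inhibitor through which dopamine receptors act. In the miR-34 experiment the GFP Ctrl mice had 49.65, 61.83 and 67.51 CPM and the GFP-miR-34sp mice 41.11, 41.51 and 46.19 CPM. All sponge mice were below all controls, with a group mean of 42.94 CPM (SD 2.824, n = 3) against 59.66 CPM (SD 9.129, n = 3). The log2 fold change was -0.47 (SE 0.10) and did not pass edgeR's quasi-likelihood test over all genes (adjusted p = 0.182). It did pass with DESeq2 (adjusted p = 0.00304) and with edgeR and no filter on low counts (adjusted p = 3.02e-04). In edgeR it also passed without GFP Ctrl mouse 10 (adjusted p = 0.00193). The other leave-outs of 1 mouse gave adjusted p up to 0.769. Without mouse 8 the log2 fold change was -0.37 (edgeR adjusted p = 0.388). In the miR-9 experiment the groups overlapped, with 54.10, 57.65 and 60.79 CPM in GFP Ctrl and 46.99, 50.23 and 61.24 CPM in GFP-miR-9sp (log2 fold change -0.10, SE 0.08, edgeR adjusted p = 0.97).

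Rgs9 (chr11:109086669-109159443, minus strand) and Pde10a (chr17:8718237-9179513, plus strand), which shorten G protein and cyclic nucleotide signals, were more even between mice than Adora2a, and no difference with a sponge passed the test. Rgs9 had 15.80, 17.21 and 18.55 CPM in GFP Ctrl and 15.86, 18.63 and 19.30 CPM in GFP-miR-9sp, then 11.50, 12.42 and 16.81 CPM in GFP Ctrl and 12.30, 14.33 and 14.70 CPM in GFP-miR-34sp. Pde10a had 3.36, 3.54 and 3.58 CPM in GFP Ctrl against 2.86, 3.49 and 4.11 CPM in GFP-miR-9sp, and 2.42, 3.40 and 3.72 CPM in GFP Ctrl against 1.97, 2.92 and 3.72 CPM in GFP-miR-34sp. All of these groups overlapped, and the 4 log2 fold changes lay between -0.10 and 0.09 with SEs of 0.09 to 0.25.

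Penk (chr4:4060678-4065966, minus strand) and Tac1 (chr6:7505071-7512973, plus strand) encode the precursors of enkephalin and substance P, which mark the separate projection neuron classes. Penk had 37.54, 43.50 and 57.24 CPM in GFP Ctrl and 30.88, 35.02 and 42.57 CPM in GFP-miR-34sp (log2 fold change -0.37, SE 0.14, edgeR adjusted p = 0.709). Tac1 had 11.51, 12.23 and 14.78 CPM in GFP Ctrl and 9.22, 10.21 and 10.33 CPM in GFP-miR-34sp (log2 fold change -0.37, SE 0.12, edgeR adjusted p = 0.574). The Tac1 groups did not overlap and the Penk groups did, with mouse 8 the highest of the 6 for both peptides. Without mouse 8 the log2 fold changes were -0.19 for Penk and -0.26 for Tac1 (edgeR adjusted p = 0.891 and 0.847). In the miR-9 experiment Penk had 47.57, 52.07 and 55.32 CPM in GFP Ctrl and 36.69, 48.14 and 51.49 CPM in GFP-miR-9sp, and Tac1 had 12.10, 14.03 and 16.37 CPM against 10.43, 10.65 and 16.43 CPM. Both log2 fold changes there were -0.16, with SEs of 0.10 and 0.17 and adjusted p of 0.97, and the groups overlapped.

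Six3 (chr17:86012948-86031153, plus strand) encodes a homeobox transcription factor of the developing forebrain and eye that is needed for indirect pathway neurons, and it varied the most of the members, from 0.1276 to 2.562 RPKM, a ratio of 20.1. In the miR-34 experiment the GFP Ctrl mice had 1.03, 1.81 and 9.43 CPM and the GFP-miR-34sp mice 0.60, 0.65 and 0.82 CPM. Every sponge mouse was below every control, and mouse 8 alone held 111 of the reads, against 7 to 20 in the other mice. The log2 fold change was -2.53 (SE 0.77, edgeR adjusted p = 0.552), and without mouse 8 it was -1.0 (adjusted p = 0.809). With no filter on low counts the gene passed (edgeR adjusted p = 0.00394). In the miR-9 experiment the GFP Ctrl mice had 0.84, 1.49 and 3.32 CPM, the last being mouse 16, and the GFP-miR-9sp mice 0.47, 0.64 and 1.22 CPM. These groups overlapped, and the log2 fold change of -1.29 (SE 0.51, edgeR adjusted p = 0.97) became -0.57 without mouse 16. The antisense gene Six3os1 was counted on its own. It had 14 reads in mouse 8 against 1 to 4 in the other mice of that experiment, and 8 in mouse 16 against 1 to 11. The strand setting of the counting is not stated in the sources used here, so whether reads given to Six3 include some of Six3os1 is not known.

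**Figure D1:**
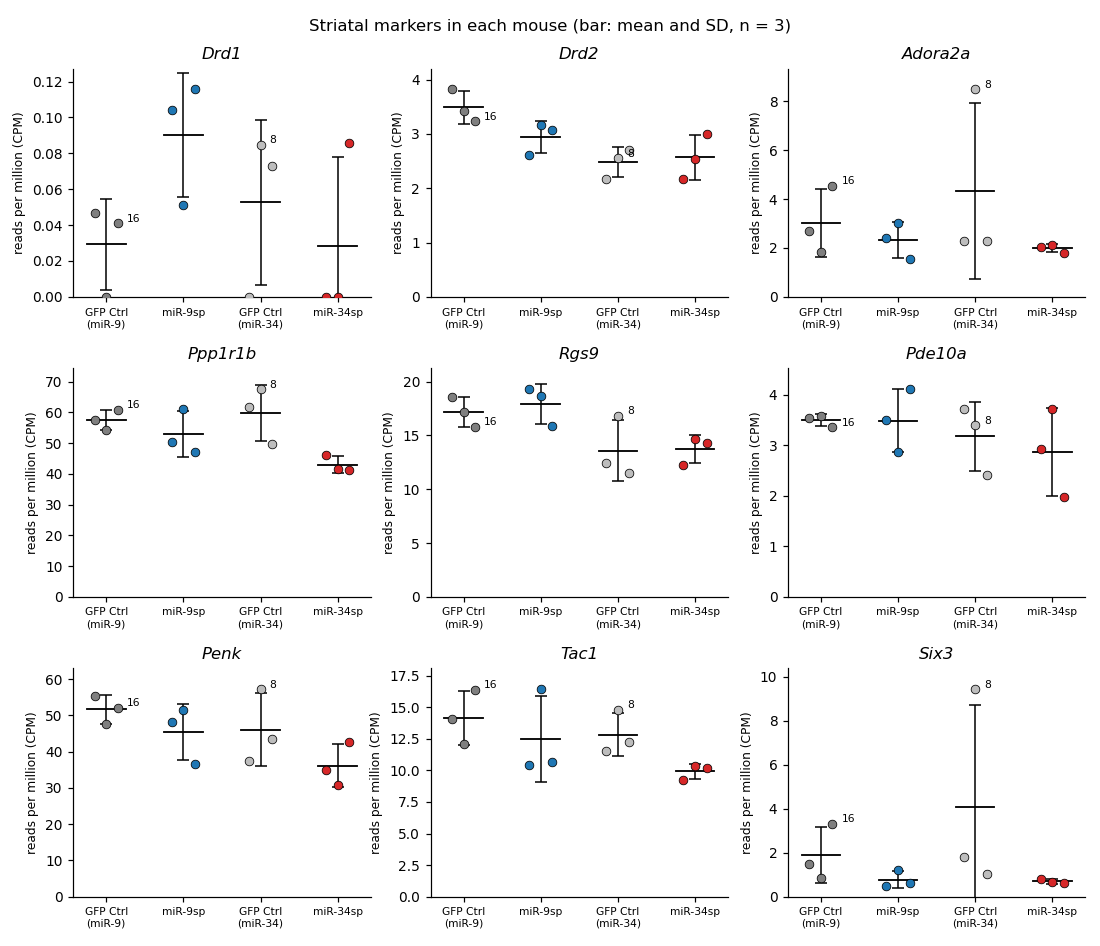
CPM (vertical axes, from 0) of the 9 striatal markers in each mouse, in 4 groups of 3 mice. Bars give the mean and SD, an SD bar is clipped at 0, and GFP Ctrl mice 8 (miR-34 experiment) and 16 (miR-9 experiment) are numbered. Six3 and Adora2a reach 9.43 and 8.49 CPM in mouse 8, while Drd2 is 2.55 CPM there.

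The first of the mice that stood apart, GFP Ctrl mouse 8 of the miR-34 experiment, had 11.4 times the median of the other 5 mice for Six3 and 3.99 times for Adora2a. Penk, Ppp1r1b, Tac1 and Rgs9 were 1.52, 1.46, 1.43 and 1.35 times that median and highest of the 6 mice. Drd2 was at the median (1 time) and Pde10a at 1.16 times, so the members did not rise together in full. Over all 12467 genes compared, 0.898% were at least 2 times the median in this mouse, 5 genes were above Six3 and 21 above Adora2a. Isl1, a factor of direct pathway and cholinergic neurons, had 16 reads in it against 1 to 5 in the others. The dopamine receptor Drd3, a marker of the ventral striatum and the islands of Calleja, had 4 reads against 0 to 1.

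GFP Ctrl mouse 16 of the miR-9 experiment had the same leading genes at a lower size, with Six3 3.94 times and Adora2a 1.89 times the median of the other 5. Isl1 had 10 reads against 1 to 2, Drd3 had 0 reads against 0 to 2, and Tac1 was 1.35 times the median. Ppp1r1b and Penk were 1.12 and 1.08 times the median, Drd2 was 1.02 times and Rgs9 was the lowest of the 6 at 0.852 times. Of 13040 genes compared, 0.307% were at least 2 times the median in this mouse, 1 gene was above Six3 and 54 above Adora2a. The mean z-score of the 8 markers with a mean of at least 1 CPM was 0.485 in mouse 16, below the 0.508 of GFP Ctrl mouse 2 in its experiment, whereas mouse 8 had the highest of the 12 mice at 1.653.

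Co-variation between mice was measured as Pearson's r of log2(CPM + 0.5), centred on the mean of each experiment, for the 28 pairs of the 8 members with a mean of at least 1 CPM, and pairs with Drd1 were not computed. The centring keeps the difference between sponge and GFP Ctrl in the values. The median pair had r = 0.327, against 0.020 over all pairs of the 12046 genes at that level. An r of at least 0.5 was found for 10 of 28 pairs (35.7%), against 7.55% of all gene pairs. All 10 joined Six3, Adora2a, Ppp1r1b, Penk and Tac1 with each other, with r from 0.681 to 0.939. Drd2 stayed apart with r from -0.449 to 0.364 with the other members, as did Pde10a with -0.449 to 0.230 and Rgs9 with 0.069 to 0.492.

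**Figure D2:**
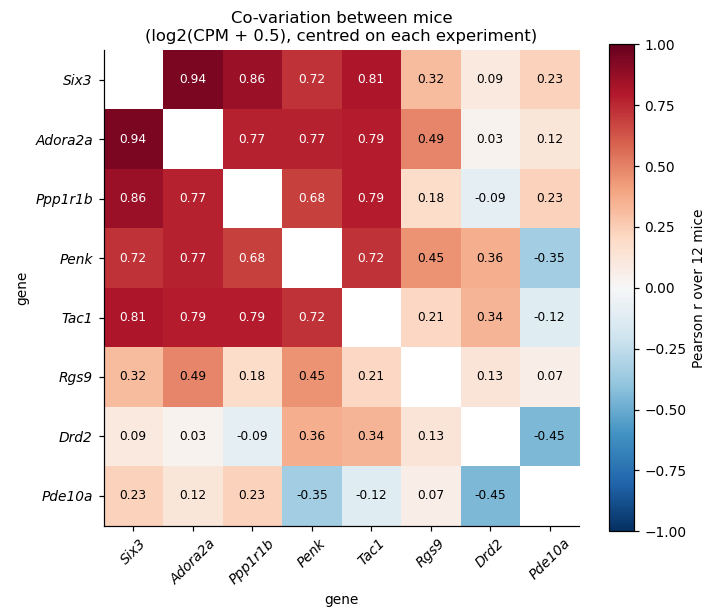
Pearson r over 12 mice for each pair of the 8 striatal markers with a mean of at least 1 CPM (both axes: genes; colour and numbers: r). The upper left block of Six3, Adora2a, Ppp1r1b, Penk and Tac1 holds all pairs with r of at least 0.5, and Rgs9, Drd2 and Pde10a lie outside it.

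The block of 5 genes was seen in each experiment of 6 mice, with r from 0.562 to 0.962 in the miR-9 experiment and from 0.633 to 0.970 in the miR-34 experiment. Without mice 8 and 16 together, its r ranged from 0.407 to 0.916, 8 of the 28 pairs still reached 0.5, and the median over the 28 pairs was 0.155. The highest pair, Adora2a and Six3 at r = 0.939, had r = 0.556 without these mice. The lowest pair, Drd2 and Pde10a, had r = -0.449. The block and these pairs were found by their values and are a description.

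Of the pairs fixed by name, Penk with Tac1, peptides of separate neuron classes, co-varied with r = 0.725 and Spearman's rho = 0.748 (two-sided permutation test within experiments, p = 0.00633 and 0.00929). A difference between sponge and GFP Ctrl stays in these values, and both genes had a log2 fold change of -0.37 after miR-34sp. Within the miR-9 and miR-34 experiments r was 0.678 and 0.823 (exact permutation test, p = 0.101 and 0.0486). Without mouse 8 and GFP-miR-9sp mouse 23, the mice farthest from the median of Penk, r fell to 0.449 (permutation test, p = 0.118). With any 1 mouse left out, r lay between 0.601 and 0.801. Whether the relation rests on the farthest mice was not tested, since taking out the farthest values can itself lower r. Drd2 with Adora2a, both of the indirect pathway, had r = 0.034 and rho = 0.035 (permutation test, p = 0.929 and 0.923), with 0.108 and -0.012 within the experiments and -0.003 without the farthest mice.

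Drd2 with Penk had r = 0.364 and rho = 0.524 (permutation test, p = 0.262 and 0.0961), with 0.394 and 0.356 within the experiments and 0.368 without the farthest mice. Ppp1r1b with Pde10a had r = 0.229 and rho = 0.070 (permutation test, p = 0.582 and 0.854), but -0.816 in the miR-9 experiment and 0.484 in the miR-34 experiment, so no common relation held within experiments, and r was -0.392 without the farthest mice. These p are not adjusted for the 28 pairs computed. Whether pairs differ in r was not tested.

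**Figure D3:**
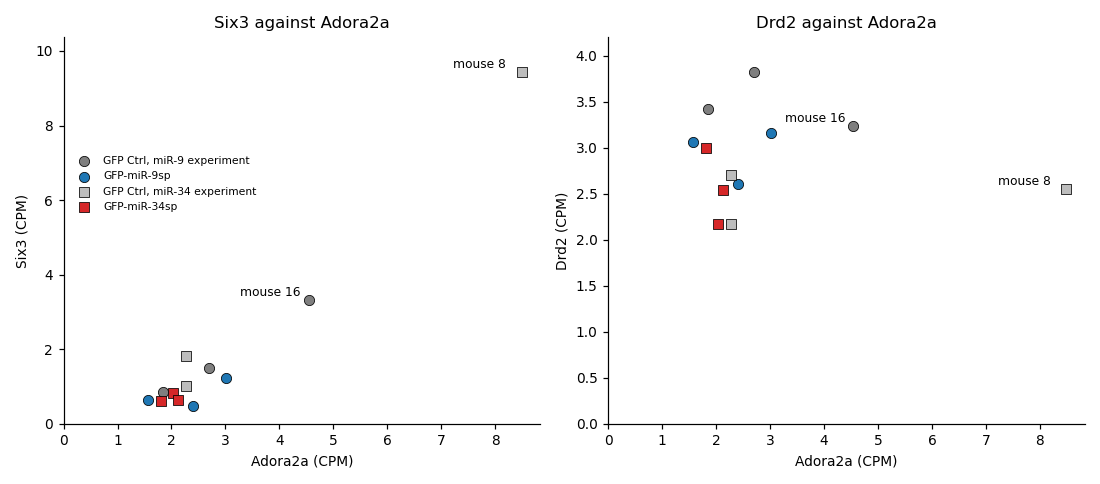
Six3 (left) and Drd2 (right) against Adora2a in the 12 mice, in CPM on linear axes from 0, with groups by colour and shape. Six3 and Adora2a are both highest in GFP Ctrl mouse 8 and next in mouse 16, while Drd2 does not follow Adora2a (r = 0.034).

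Promoter windows were read for the genes of the block where RefSeq gave them, which was the case for Tac1 and Six3. The windows run from 250 bases before to 50 after the start (GRCm38.p6) and are shown because these genes moved together between mice. Capitals mark the core TGACG of the cAMP response element or its complement CGTCA and the TATA box TATAAA or its complement TTTATA.
Tac1, chr6:7554811-7555110, plus strand: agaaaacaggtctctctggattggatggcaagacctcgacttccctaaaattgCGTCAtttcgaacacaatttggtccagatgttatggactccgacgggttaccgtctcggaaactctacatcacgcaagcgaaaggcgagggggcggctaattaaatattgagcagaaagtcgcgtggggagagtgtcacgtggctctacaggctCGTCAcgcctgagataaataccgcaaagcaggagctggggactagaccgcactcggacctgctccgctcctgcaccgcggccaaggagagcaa
Six3, chr17:85620584-85620883, plus strand: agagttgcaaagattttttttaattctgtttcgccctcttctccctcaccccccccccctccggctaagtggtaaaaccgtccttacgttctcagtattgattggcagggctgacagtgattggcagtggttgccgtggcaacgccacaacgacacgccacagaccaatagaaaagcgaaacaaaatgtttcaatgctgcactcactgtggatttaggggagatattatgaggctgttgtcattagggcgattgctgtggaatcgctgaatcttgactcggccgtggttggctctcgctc
The Tac1 window held 2 such cores and no TATA box, and the Six3 window held neither. Of all 32851 windows, 20.8% held the core and 13.6% a TATA box.

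The genes most like the members were ranked by r with the mean z-score of the 8 markers over 12 mice. The first 10 were Slc2a1, Il6st, Dab2, Serpine2, Fads2, Agt, Sdc2, Itih5, Vat1l and Plaat3, with r from 0.952 to 0.90. None of them is on the list of other striatal genes. Slc2a1 is the glucose transporter of the blood-brain barrier and Agt, the precursor of angiotensin, is an astrocyte product, and their levels ranged from 101.1 to 120.5 CPM and from 30.14 to 49.45 CPM.

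Among 30 other striatal genes, 18 had a mean of at least 1 CPM, and 4 of the 18 (22.2%) had r of at least 0.5 with the members, against 11.3% of all genes. These included Adcy5, the striatal adenylyl cyclase, at r = 0.698, and the potassium channel Kcnh4 at 0.516. At the other end Arpp21, a cAMP-regulated phosphoprotein, had r = -0.646. The list's summed CPM had r = 0.759 with the members, but lists of other cells were as close: astrocyte markers had r = 0.845 and choroid plexus markers 0.779, with 0.922 and 0.880 within the miR-9 experiment and 0.874 and 0.742 within the miR-34 experiment. The 3 cholinergic markers, which summed to 1.05 to 3.142 CPM with Chat at 0 to 5 reads, had r = 0.732, but 0.350 within the miR-9 experiment and 0.835 within the miR-34 experiment. Further lists had r of 0.621 (dopamine synthesis), 0.619 (septum and subpallium), 0.564 (thalamus and habenula), 0.509 (inhibitory neurons) and 0.372 (microglia). Markers of hippocampal principal cells had r = -0.323 and oligodendrocyte markers 0.038. Abundant genes weigh most in these sums, with Ttr up to 2175 CPM among choroid plexus markers and Slc1a3 up to 1205 CPM among astrocyte markers. Total counted reads had r = 0.020 with the members.

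Choroid plexus markers, genes of the secretory epithelium in the ventricles, moved with the members and with the miR-34 groups. Their 10 genes, 2 of which had at most 3 reads in every mouse, summed to 649.9, 2001 and 2383 CPM in GFP Ctrl and to 72.36, 141.9 and 151 CPM in GFP-miR-34sp, with mouse 8 the highest. In the miR-9 experiment they summed to 124.2, 293.1 and 748.8 CPM in GFP Ctrl and to 53.98, 68.81 and 887 CPM in GFP-miR-9sp, and the mouse at 887 CPM also had the highest Tac1 and Ppp1r1b of its experiment. Mouse 16, at 293.1 CPM, was exceeded by 2 mice with less Six3. The part of choroid plexus content in the members' levels was not tested.

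**Figure D4:**
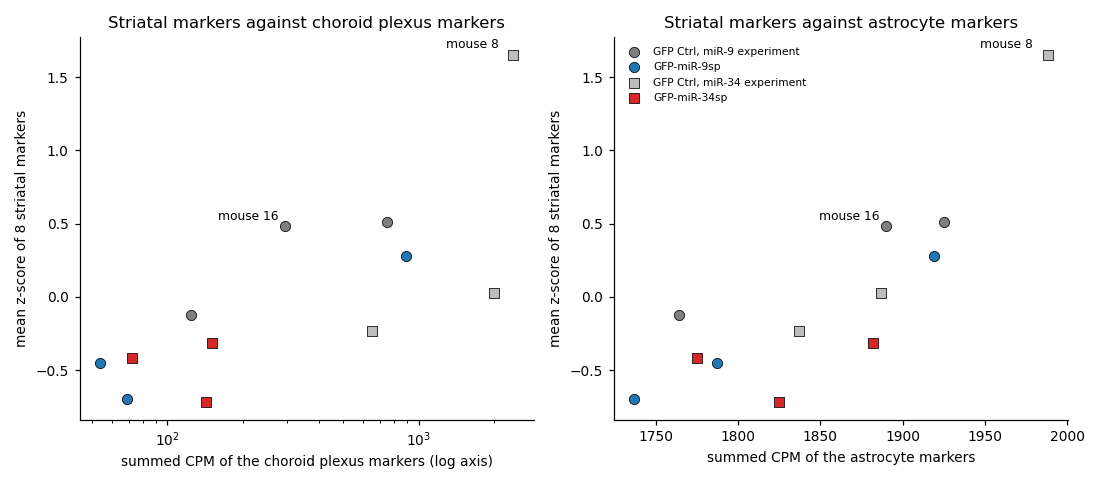
Mean z-score of the 8 striatal markers (vertical axes) against the summed CPM of choroid plexus markers (left, log axis) and astrocyte markers (right, linear axis not from 0), 1 point per mouse. Mouse 8 is highest on all axes, and the GFP-miR-34sp mice lie in the lower part of the choroid plexus axis with 72.36 to 151 CPM.

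Against GFP Ctrl of the same experiment, none of the 8 members tested passed edgeR's adjusted p limit of 0.05 after either sponge. Over all genes, 0 of 13045 passed after miR-9sp (0%) and 8 of 12492, all lower, after miR-34sp (0.064%). After miR-9sp, 6 of 8 members had a log2 fold change below 0, with a median of -0.16 against -0.001 over all genes. At an unadjusted p under 0.05, 1 member was lower, Six3, against 2.26% of all genes, and no member was higher, against 2.47%. DESeq2 passed 2 of the 13045 genes, no member among them. In CPM, every GFP-miR-9sp mouse was below every GFP Ctrl mouse for 1 member, Drd2, against 7.86% of all genes. Every one was above for no member, against 3.11%. Without mouse 16 no member was at an unadjusted p under 0.05. Leaving out a control cannot undo a separation, so Drd2 necessarily remained lower in every sponge mouse. No other member joined it, while the share of all genes lower in every sponge mouse became 12.7%. None was higher in every sponge mouse, against 5.44% of all genes. The count at an unadjusted p under 0.05 was also 0 without GFP-miR-9sp mouse 9 or 23, and 4 without GFP-miR-9sp mouse 17 (Six3, Ppp1r1b, Tac1 and Penk).

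After miR-34sp, 6 of 8 members again had a log2 fold change below 0, and the median was -0.37 against -0.001 over all genes. At an unadjusted p under 0.05, 5 members were lower, against 3.72% of all genes: Ppp1r1b, Six3, Tac1, Penk and Adora2a. No member was higher, against 2.71%. Without mouse 8 the count was 3, since Penk and Adora2a dropped out, and 391 of 12516 genes were lower at that limit. The same 3, Ppp1r1b, Six3 and Tac1, were left without GFP-miR-34sp mouse 3 or 13. The 5 members are the genes that co-varied between mice, so the counts are not independent of each other. Every GFP-miR-34sp mouse was below every GFP Ctrl mouse for 4 members, Adora2a, Ppp1r1b, Tac1 and Six3, against 5.43% of all genes, and above for none, against 6.2%. Leaving out a control cannot undo such a separation, so finding the same 4 without mouse 8 was fixed beforehand and is no further check. Without mouse 8, 9.85% of all genes were lower in every sponge mouse.

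Of the 8 choroid plexus markers tested, all 8 were lower after miR-34sp at an unadjusted p under 0.05 and 4 passed the adjusted limit, with a median log2 fold change of -3.73. Their part in the members' differences was not tested. The study's own criterion combines its unpaired test at an unadjusted limit of 0.05 with a ratio of means above 1.2 or below the inverse of 1.2. Applied here to reads summed per symbol, 1 member passed it after miR-34sp, Ppp1r1b, against 2% of all genes. No member passed it after miR-9sp, against 1.44%. These shares are not the paper's own, which reports fewer altered genes in both experiments. No exact permutation test was run for single genes, because with 3 mice a group its smallest p is 0.1.

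**Figure D5:**
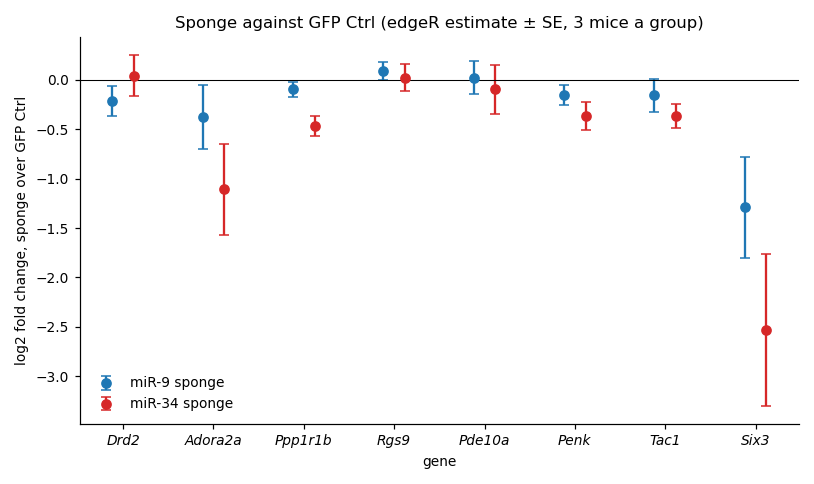
log2 fold change of sponge over GFP Ctrl (vertical axis) for the 8 striatal markers tested, with 1 point per experiment and bars of 1 SE from edgeR, 3 mice a group. Six3 is lowest in both experiments (-1.29 and -2.53) with the widest bars, and Rgs9 and Pde10a lie between -0.10 and 0.09, as does Drd2 after miR-34sp (0.04) but not after miR-9sp (-0.22).

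The sponge effects were compared with each other in 1 model of all 12 mice. No member and none of 12835 genes passed edgeR's adjusted limit (0%), and at an unadjusted p under 0.05 there was 1 member, Ppp1r1b, against 6.1% of all genes, and none without mouse 8 or without GFP-miR-9sp mouse 17. Its effect after miR-9sp was above that after miR-34sp by 0.37 on the log2 scale (SE 0.14, edgeR adjusted p = 0.767). The Six3 difference of 1.25 (SE 1.14) turned to -0.28 without mouse 8, and that of Adora2a from 0.73 (SE 0.65) to -0.19.

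The wider pathways did not pass the adjusted limit either. Of 33 genes of dopamine, adenosine and cAMP signalling, 26 were tested after miR-9sp and 25 after miR-34sp, and 0 passed in both. At an unadjusted p under 0.05 there was none after miR-9sp, against 2.26% of all genes lower and 2.47% higher, and 3 lower and 1 higher after miR-34sp, against 3.72% and 2.71%: Adora2a, Ppp1r1b and Adcy5 (log2 fold change -0.158) were lower and Rgs7bp, which anchors R7 regulators such as Rgs9 at the membrane, was higher (0.10). Of 12 peptides and peptide receptors, 7 and 6 were tested and 0 passed. At an unadjusted p under 0.05 the dynorphin precursor Pdyn, with 5 to 18 reads per mouse, was higher after miR-9sp (1.472), and Penk, Tac1 and the substance P receptor Tacr1 (-0.584) were lower after miR-34sp, against the same shares of all genes. Of the 6 lower genes of these lists, 4 are members counted above.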

How the data were processed

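Poly-A mRNA of the hippocampi of 12 mice was sequenced. The deposited values are raw counts, whole numbers of reads that the authors counted on 32850 RefSeq transcripts, and the deposited tables hold other values beside them, transcript lengths in bases. The methods give mm9 as the genome, while the submitters' processing notes name STAR and mm10, and the counting tool, its strand setting and its rule for shared reads are not given in the sources used here. The word totRNA stands in the column names of the miR-9 experiment only. Labels tie 3 GFP Ctrl mice to the miR-34 experiment by name. The remaining 3 were taken as controls of the miR-9 experiment, since by the methods each experiment had 3.

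Rows were joined to symbols (98.7%) and summed. The members and lists were chosen with earlier results of these data known, and all members, the named pairs and the 10 genes most like them are named by rule. Genes were tested where their scaled reads averaged more than 10 over the 6 mice of an experiment, with edgeR 4.0.16 (R 4.3.3, quasi-likelihood, TMM, two-sided, Benjamini-Hochberg over all genes tested), with DESeq2 1.42.0 as an alternative. Nothing in the labels gives litter or batch, so p-values measure the spread between these mice. The floor of 3 reads covers counting error only, since PCR copies cannot be told apart. The permutation test of r used 100000 resamples within experiments, and all 720 orders within 1 experiment. The code was tested on simulated data. Alternatives were other tools, scalings, filters, pseudocounts and centrings, single RefSeq rows, and leaving out each mouse. Leaving out mice 8 and 16 was chosen after seeing the data. Positions are on mm9 from GENCODE M1, promoters on GRCm38.p6 from RefSeq. Python 3.11.15, numpy 2.4.6, pandas 2.3.3, scipy 1.17.1 and matplotlib 3.10.9 were used. Of the 30 other striatal genes, 1 is counted with its list but its own values are not reported here.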

Additional observations from a re-analysis of the deposited data

How the results depend on the processing

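No paired analysis was possible because no label pairs a sponge mouse with a GFP Ctrl mouse. Of 323 values of the members' fold changes under the alternatives, 300 kept their direction and 23 turned, and the cause was not tested. Of the called members in the miR-34 experiment, 0 became 1 with DESeq2, 2 with no filter on low counts and 1 by the study's criterion, and 0 to 1 with a mouse left out. Genes called there went from 8 to 36 with DESeq2, 4 with DESeq2 size factors, with total counts or with single rows, 81 with no filter, 0 above 50 reads or in 1 model of all 12 mice, 250 by the study's criterion and 0 to 57 with a mouse left out (57 without GFP Ctrl mouse 10). In the miR-9 experiment they went from 0 to 2 with DESeq2 and with no filter, and to 188 by the study's criterion. With a mouse left out they were 0 to 1, as in the comparison of the sponge effects (0 to 1). The 250 and 188 are from the criterion as applied here and are not the paper's counts.

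The Pde10a fold change turned to -0.01 (total counts), -0.04 (longest row) and -0.0022 (the study's criterion) after miR-9sp, and to 0.03 (longest row) after miR-34sp. With a mouse left out, log2 fold changes after miR-9sp ranged from -0.62 to 0.06 (Adora2a) and from -0.12 to 0.16 (Pde10a). After miR-34sp they ranged from -0.08 to 0.14 (Drd2), -0.09 to 0.21 (Rgs9) and -0.36 to 0.08 (Pde10a). Differences of the sponge effects ranged from -0.19 to 1.17 (Adora2a), -0.12 to 0.18 (Rgs9), -0.07 to 0.38 (Pde10a), -0.03 to 0.34 (Tac1) and -0.28 to 1.97 (Six3). The mean RPKM of Rgs9 moved to 2.047 with the longest entry. The median r of the members' pairs ranged from 0.106 (without GFP Ctrl mouse 8 of the miR-34 experiment) to 0.424 with a mouse left out. The r of Drd2 and Adora2a was -0.003 with TMM, -0.020 centred on groups, -0.031 without mice 8 and 16, -0.003 without the farthest mice and -0.043 to 0.195 with a mouse left out. The r of Ppp1r1b and Pde10a was -0.392 without the farthest mice and -0.096 to 0.473 with a mouse left out.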
